A study of Rattus norvegicus with 9 samples.

Results

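6 arrays of rat hippocampal RNA are described here, out of 9 in the series: 3 exposed to ketone bodies for 6 h and 3 controls in artificial cerebrospinal fluid alone. The labels call the source hippocampal neurons, while markers of glia and blood were also present, as given below. The members were taken from the sample titles, which name both groups and number their arrays 1 to 3. The ketone body mixture, its dose and any exposure time of the controls are not stated in the labels, and neither are the strain, the age or whether the arrays of a group came from separate animals or cultures. Each p below therefore measures only the spread between arrays, which may be technical. Of 31042 probe sets, 18625 had a mean over all 9 arrays above the 40th percentile and were tested, and these hold 10707 genes. Levels are log2(signal + 16) after quantile normalization, and a change is the 6 h mean minus the control mean on that scale, given with its standard error (SE, n = 3 arrays per group throughout).

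Ketone bodies, chiefly beta-hydroxybutyrate and acetoacetate, are made by the liver from fatty acids during fasting or a high-fat diet and are taken up by the brain through monocarboxylate transporters. In neurons and astrocytes the mitochondrial enzymes Bdh1, Oxct1 and Acat1 turn them into acetyl-CoA for the citric acid cycle. Beta-hydroxybutyrate also acts as a signal, through the receptor Hcar2 and as an inhibitor of histone deacetylases. Chemokines are small secreted proteins that attract leukocytes, and many of them are transcribed through NF-kappaB and interferon-regulated factors in glia, endothelium and neurons. Immediate early genes are transcribed within minutes to hours of a signal and encode transcription factors and regulators of signalling.

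The promoters of the 4 genes with a kappaB match among the 15 named genes with the smallest p and a positive change are shown because most of them encode chemokines, and that of Tnf because this cytokine changed the other way. Each run holds the 250 bases before the annotated start, 5′ to 3′ on the gene's own strand, from RefSeq on the GRCr8 build. Capitals mark matches, on either strand, to the NF-kappaB consensus, to the AP-1 site TGANTCA or to the interferon element TTTCNNTTTC. The intervals are chr14:15988816-15989065 (plus strand) for Cxcl10, chr14:15973478-15973727 (plus strand) for Cxcl11, chr4:32941277-32941526 (minus strand) for Tfpi2, chr14:17479322-17479571 (minus strand) for Cxcl1 and chr20:3626435-3626684 (plus strand) for Tnf.
Cxcl10: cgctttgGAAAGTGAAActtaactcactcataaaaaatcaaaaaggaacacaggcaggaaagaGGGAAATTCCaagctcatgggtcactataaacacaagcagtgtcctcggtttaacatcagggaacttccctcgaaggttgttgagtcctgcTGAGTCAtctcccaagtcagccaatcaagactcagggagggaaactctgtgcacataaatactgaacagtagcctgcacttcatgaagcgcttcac
Cxcl11: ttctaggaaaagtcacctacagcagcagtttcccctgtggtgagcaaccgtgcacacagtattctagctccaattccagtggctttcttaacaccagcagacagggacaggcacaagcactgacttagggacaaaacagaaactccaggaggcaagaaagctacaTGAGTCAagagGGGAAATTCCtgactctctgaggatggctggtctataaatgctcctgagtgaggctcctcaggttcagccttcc
Tfpi2: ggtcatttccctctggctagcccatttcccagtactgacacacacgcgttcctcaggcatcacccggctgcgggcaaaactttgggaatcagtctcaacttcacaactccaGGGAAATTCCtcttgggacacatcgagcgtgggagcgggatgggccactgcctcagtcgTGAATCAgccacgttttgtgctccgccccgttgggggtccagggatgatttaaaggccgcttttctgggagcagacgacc
Cxcl1: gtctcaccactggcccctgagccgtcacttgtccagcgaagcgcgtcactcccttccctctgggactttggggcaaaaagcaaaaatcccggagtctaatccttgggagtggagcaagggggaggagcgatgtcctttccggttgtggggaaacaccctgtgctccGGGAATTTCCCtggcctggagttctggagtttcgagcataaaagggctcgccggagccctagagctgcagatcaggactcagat
Tnf: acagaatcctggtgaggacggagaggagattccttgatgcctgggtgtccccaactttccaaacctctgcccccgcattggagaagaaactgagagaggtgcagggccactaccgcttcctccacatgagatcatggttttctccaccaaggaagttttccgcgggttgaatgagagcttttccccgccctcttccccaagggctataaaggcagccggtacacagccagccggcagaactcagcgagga

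In Cxcl10 the interferon element begins 243 bases before the start, the kappaB match 187 and the AP-1 match 96 bases before it. In Cxcl11 the AP-1 and kappaB matches lie 85 and 74 bases before the start, and in Tfpi2 the kappaB match lies 139 and the AP-1 match 80 bases before it. The run of capitals in Cxcl1 is a pair of overlapping kappaB matches that begin 84 and 83 bases before the start. Ccl2 and Csrnp1, both of which rose, had no entry in the promoter table, so their promoters were not searched. Among the 11 of the 15 genes with an entry in the promoter table, 4 held a kappaB match and 6 an AP-1 match, while of all 27457 promoters of that length 3.52% and 6.36% did. Among the 12 of the 15 genes with the smallest p and a negative change that had an entry, 0 held either match. A CRE (TGACGTCA) was found in Maff and Ppp1r15a on the higher side and in Dusp1 on the lower side, beside 1.7% of all promoters, and the interferon element in Cxcl10 and Synj2bp, beside 3.29%. A CArG box was found in 0 genes of either side and in 1.5% of all promoters. These genes were picked by their change, and a match says only that the letters are present.

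3 of the 4 probe sets that rose carry a single gene name. Ccl2, which encodes the chemokine that attracts monocytes, read 6.79, 6.79 and 6.50 on control arrays 1 to 3 and 8.31, 8.55 and 8.54 on 6 h arrays 1 to 3. Both groups were tight and did not overlap. Ccl2 rose by 1.77 ± 0.13, a fold of 3.42 on the log2(signal + 16) scale (limma adjusted p = 0.00142). Csrnp1, which encodes a cysteine- and serine-rich nuclear protein, read 6.72, 6.73 and 6.65 in control and 7.71, 7.63 and 7.69 at 6 h. Its arrays lay closely together within each group, and it rose by 0.98 ± 0.10 (limma adjusted p = 0.0265). Cxcl10, a chemokine for activated T cells that interferon induces, read 6.16, 6.17 and 5.97 in control and 6.96, 7.12 and 7.04 at 6 h. It also showed no overlap and rose by 0.94 ± 0.12 (limma adjusted p = 0.0431).

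The remaining probe set that rose is listed with several genes, Mt1f, Ttr and Mt1, and read 9.36, 9.46 and 9.37 in control and 9.99, 10.11 and 10.06 at 6 h, a change of 0.66 ± 0.08 (limma adjusted p = 0.0431). The separate probe set of Ttr, the thyroid hormone carrier of choroid plexus, had a change of -0.02 ± 0.06, while that of Mt2A, a metallothionein that binds zinc and copper, read 8.99, 9.13 and 9.19 in control and 9.74, 9.78 and 9.68 at 6 h. The Mt2A groups did not overlap and its change was 0.63 ± 0.10 (limma adjusted p = 0.141), which did not pass. Mt1 also had 1 probe set of its own, with a mean of 5.18 over all 9 arrays, which lay under the filter and was not tested. Metallothionein genes are similar in sequence, so the array may not separate them. The 1 probe set that fell is listed with no gene and read 7.55, 7.75 and 7.64 in control and 6.33, 6.69 and 6.48 at 6 h (-1.15 ± 0.14, limma adjusted p = 0.0431).

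In all, limma called 5 of 18625 probe sets at an adjusted p of 0.05, or 0.0268%, with 4 that rose (0.0215%) and 1 that fell (0.00537%). At unadjusted p under 0.05 there were 792 (4.25%), 519 with a positive (2.79%) and 273 with a negative change (1.47%), where 931 would arise by chance. With the values as deposited that split was 391 and 414, with each array centred on its median 728 and 187, and without 6 h array 1 it was 511 (2.74%) and 466 (2.5%). Only Ccl2 passed when any 1 of the 6 arrays was left out, with adjusted p between 0.00219 and 0.0195 by limma, while Csrnp1 ran from 0.0968 to 0.222 and Cxcl10 from 0.0968 to 0.283. With 1 probe set per gene, where 10707 are tested in place of 18625, limma called 11: Ccl2, Csrnp1 and Cxcl10 with Cxcl11, Adamts1, Emp1, Brcc3-ps7, Tfpi2, Ppp1r15a and Maff on the higher side, and Tnf on the lower side (adjusted p = 0.0443). The plot of change against level shows how far these genes stand from the rest.

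**Figure D1:**
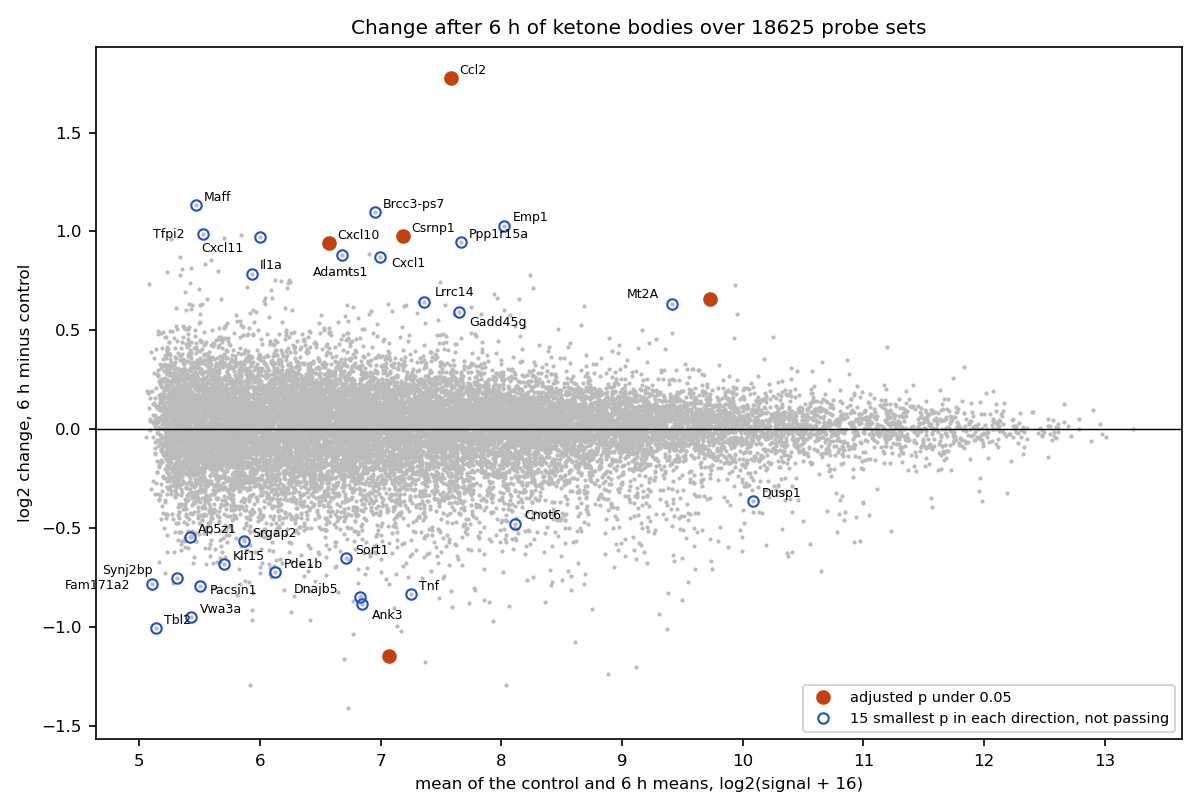
Each dot is 1 of 18625 probe sets, with its mean level (log2(signal + 16)) on the x axis and its log2 change, 6 h minus control, on the y axis. Filled orange circles are the 5 that passed an adjusted p of 0.05, with Ccl2 highest at 1.77, and open blue circles are the other single-gene probe sets among the 15 smallest p in each direction.

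The arrays differed in quality as well as in treatment, and the 1 that stands apart is 6 h array 1. It correlated with the other 6 h arrays at 0.949 to 0.955 over tested probe sets, while those correlated at 0.982 with each other and the controls at 0.981 to 0.987. On that array 734 probe sets lay 1 or more below the control mean, against 94 and 13 on 6 h arrays 2 and 3. For beta-actin the control probe sets gave a 3'/5' log2 ratio, higher where RNA is more degraded or labelled copies are shorter, of 1.36, 1.26 and 1.41 in control and 2.55, 1.90 and 1.02 at 6 h (difference 0.48, exact 2-sided permutation p = 0.4, where 3 against 3 cannot go below 0.1). That of Gapdh was 0.13, 0.02 and 0.24 in control and 0.46, 0.07 and 0.04 at 6 h (difference 0.06, exact permutation p = 0.8). List medians are therefore given with their value without 6 h array 1 or their range when any 1 of the 6 arrays was left out, and the part of RNA quality in the results was not tested beyond them. Markers of several cell types were present. In control the excitatory neuron gene Slc17a7 averaged 11.26, the astrocyte gene Gfap 10.96, the myelin gene Mbp 12.62 and the microglial gene Csf1r 7.87, each in its brightest probe set and against a filter level of 5.21, so the RNA also held transcripts of glia.

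**Figure D2:**
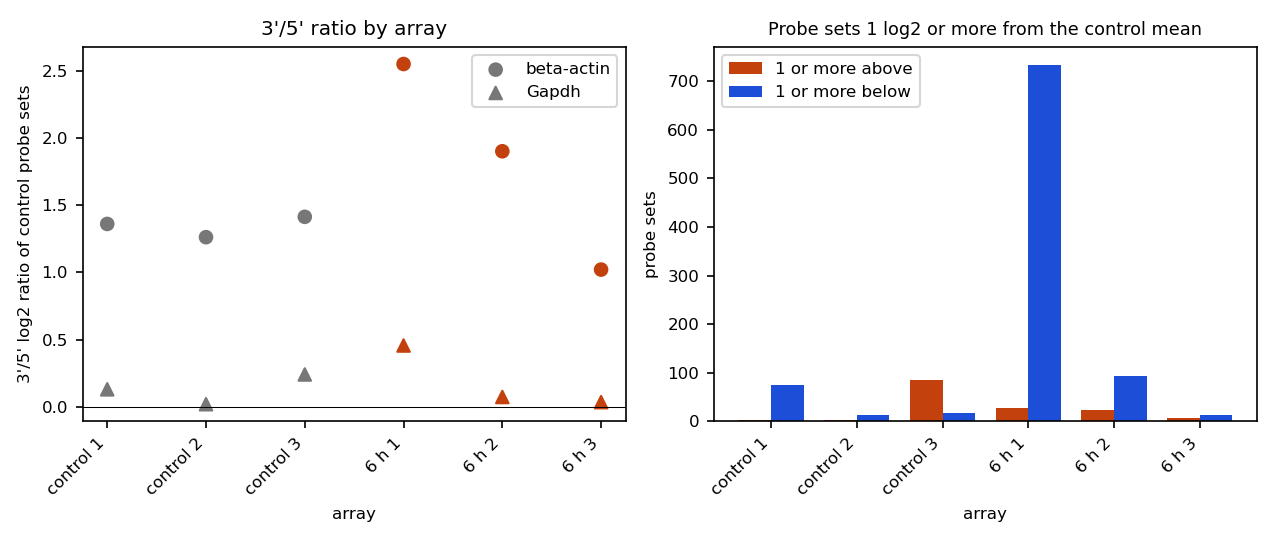
Left, 3'/5' log2 ratios of Gapdh and beta-actin on each of the 6 arrays. Right, the number of probe sets 1 or more above or below the control mean (for a control array, the mean of the other controls) on the log2 scale, with 734 below it on 6 h array 1.

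Chemokines include 2 of the 3 named genes that rose. Of 28 chemokine genes listed 14 were tested, 9 had a positive and 5 a negative change, and the median was 0.21, beside 0.04 over all 10707 genes, of which 61.3% had a positive change. Of the 14, 2 rose (Ccl2 and Cxcl10), where 0.028% of all genes did. At unadjusted p under 0.05 there were 6 higher and 1 lower, where 3.28% of all genes were higher and 0.85% lower. Without 6 h array 1 the median was 0.27, and without control array 3 it was 0.14.

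Cxcl11, which shares the receptor Cxcr3 with Cxcl10, read 5.52, 5.44 and 5.59 in control and 6.47, 6.61 and 6.37 at 6 h, a change of 0.97 ± 0.13 (limma adjusted p = 0.0614). Cxcl1, which attracts neutrophils through Cxcr2, read 6.52, 6.65 and 6.51 in control and 7.25, 7.64 and 7.41 at 6 h, a change of 0.87 ± 0.15 (limma adjusted p = 0.161). The monocyte chemokine Ccl7 read 5.14, 5.26 and 4.98 in control and 6.11, 6.04 and 5.73 at 6 h, a change of 0.83 ± 0.16 (limma adjusted p = 0.253). The control mean of Ccl7, 5.13, lay under the filter level of 5.21, where the size of a change depends on the pseudocount. None of these 3 had overlapping groups, and each missed the threshold. Ccl4, a chemokine made by activated macrophages and microglia, read 6.82, 6.69 and 6.74 in control and 6.26, 6.62 and 6.34 at 6 h, lower on every 6 h array (-0.34 ± 0.14). Its neighbour in function, Ccl3, overlapped between the groups with 0.17 ± 0.15, so the chemokine genes did not all move one way. Cxcl16, a membrane-bound chemokine, had 0.37 ± 0.16. The chemokine receptors were mostly dim: of 16 listed 5 were tested, 1 with a positive and 4 with a negative change (median -0.08, and -0.25 to -0.07 with 1 array left out).

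The cytokine and NF-kappaB list held genes of both directions. Of 38 listed 21 were tested, 15 with a positive and 6 with a negative change (median 0.16, 0.14 without 6 h array 1 and 0.10 without 6 h array 2). At unadjusted p under 0.05 there were 8 higher and 1 lower, beside 3.28% and 0.85% of all genes, with 0 that passed. The summed signal of the tested members ran from 2729 to 2821 in control and from 3225 to 3326 at 6 h, without overlap. Tnf, the cytokine that activates NF-kappaB, read 7.74, 7.59 and 7.67 in control and 6.91, 6.90 and 6.69 at 6 h. Its groups did not overlap and the change was -0.83 ± 0.13, the smallest p among single-gene probe sets with a negative change (limma adjusted p = 0.126). The dimmer Tnf probe set had -0.78 ± 0.31 with overlapping groups. Il1a, an interleukin released by damaged or activated cells, read 5.62, 5.64 and 5.36 in control and 6.31, 6.21 and 6.47 at 6 h (0.79 ± 0.14, limma adjusted p = 0.168), and its other probe set gave 0.86 ± 0.15. Il1b, the inflammasome product, read 4.79, 4.87 and 5.18 in control and 5.57, 5.72 and 5.89 at 6 h (0.78 ± 0.20, limma adjusted p = 0.686). The control values of Il1b lay under the filter level of 5.21, and its change was 1.27 with a pseudocount of 1 and 0.36 with 64. Both interleukins were thus higher on every 6 h array than on any control array, opposite to Tnf, though none of the 3 passed.

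The same list holds feedback inhibitors and effectors of NF-kappaB. Nfkbia, which encodes the inhibitor that holds NF-kappaB in the cytoplasm and is itself a target, read 7.99, 7.95 and 7.77 in control and 8.52, 8.60 and 8.74 at 6 h (0.71 ± 0.15, limma adjusted p = 0.397). Icam1, the endothelial adhesion molecule for leukocytes, read 6.47, 6.32 and 6.20 in control and 7.26, 7.03 and 7.06 at 6 h (0.79 ± 0.15, limma adjusted p = 0.253). The groups did not overlap in either gene. Irf1, a transcription factor shared by interferon and NF-kappaB signalling, had 0.62 ± 0.14, and Nfkbiz, a nuclear inhibitor-like cofactor, 0.55 ± 0.16. The acute-phase factor Cebpb had 0.59 ± 0.17 and the RNase Zc3h12a, which degrades cytokine messages, 0.40 ± 0.15. The NF-kappaB targets Tnfaip3 (0.22 ± 0.13) and Ptgs2 (-0.12 ± 0.19, the inducible cyclooxygenase) overlapped between the groups.

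Of 34 interferon response genes 18 were tested, 13 with a positive and 5 with a negative change, and the median was 0.25 (0.21 to 0.28 with 1 array left out). At unadjusted p under 0.05 there were 7 higher and 0 lower, beside 3.28% and 0.85% of all genes, and the 7 became 4 without 6 h array 1 and 4 without control array 3. Cxcl10, already described, was the 1 member that rose, and Cxcl10, Cxcl11 and Irf1 stand in other lists as well. Ifitm3, an antiviral membrane protein, read 7.27, 7.32 and 7.34 in control and 7.75, 7.86 and 7.73 at 6 h, without overlap (0.47 ± 0.10, limma adjusted p = 0.397). The interferon regulator Irf7 had 0.35 ± 0.14, the antiviral enzyme Rsad2 0.36 ± 0.16 and the GTPase Mx2 0.52 ± 0.22, none of which passed. The summed signal of the list ran from 1765 to 1949 in control and from 2128 to 2380 at 6 h.

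Most immediate early and activity-regulated genes had positive changes. Of 54 listed 45 were tested, 36 with a positive and 9 with a negative change, and the median was 0.18 (0.20 without 6 h array 1). Csrnp1 rose, and at unadjusted p under 0.05 there were 15 higher and 1 lower, beside 3.28% and 0.85% of all genes. On 17 members all 6 h arrays lay above all controls and on 3 below, where 7.17% of all genes did so above and 2.44% below. Maff, a small basic leucine zipper factor, read 5.12, 4.55 and 5.04 in control and 6.20, 5.93 and 5.98 at 6 h (1.13 ± 0.18, limma adjusted p = 0.141). Its control values lay under the filter level, so the size depends on the pseudocount, with 1.82 for 1 and 0.54 for 64. Gadd45g, a growth arrest gene, read 7.44, 7.37 and 7.26 in control and 7.91, 7.99 and 7.94 at 6 h (0.59 ± 0.10, limma adjusted p = 0.168).

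Related factors showed changes of like size. Gadd45b had 0.62 ± 0.13, the stress-induced repressor Atf3 0.63 ± 0.13 and Tiparp, a target of the aryl hydrocarbon receptor, 0.66 ± 0.13. Tiparp's dimmer probe set had 0.39 ± 0.46 and 6 h array 1 lay below every control in it. The zinc finger factor Klf4 had 0.68 ± 0.15, Fosb 0.78 ± 0.17, the orphan receptor Nr4a1 0.50 ± 0.11 and Egr2 0.43 ± 0.11. In each of these 7 genes, in the brighter probe set, all 6 h arrays lay above all controls, and 0 passed the adjusted threshold. Fos, the prototype of the class, did not share this: it read 11.20, 11.05 and 11.40 in control and 11.06, 11.37 and 11.26 at 6 h (0.01 ± 0.12). Dusp1, a phosphatase that switches MAP kinases off, read 10.22, 10.26 and 10.33 in control and 9.83, 9.998 and 9.89 at 6 h, lower on every 6 h array (-0.36 ± 0.09, limma adjusted p = 0.491). The heat map draws by array the members with the smallest p of the inflammatory and immediate early lists, so Fos and Dusp1 are not in it. The genes in it with a negative change are Tnf and Ccl4.

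**Figure D3:**
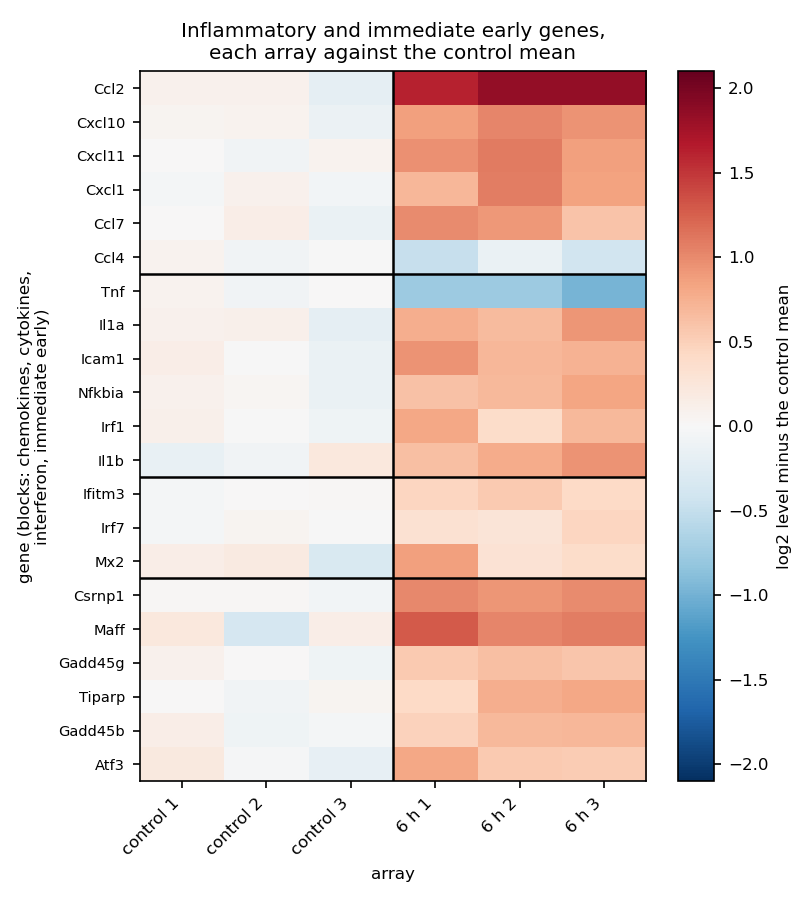
Rows are the 6 members with the smallest p of the chemokine, cytokine, interferon and immediate early lists, each gene drawn once, and columns are the 6 arrays. Colour is the log2 level minus the control mean, so that Ccl2 is the deepest red at 6 h and Tnf the deepest blue, with all 3 of its 6 h arrays below the controls.

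Several secreted, membrane and stress genes outside those lists were among the 15 smallest p with a positive change. Adamts1, a secreted metalloprotease that cuts proteoglycans, read 6.22, 6.19 and 6.30 in control and 7.26, 6.95 and 7.15 at 6 h (0.88 ± 0.12, limma adjusted p = 0.0814). Emp1, an epithelial membrane protein, read 7.73, 7.57 and 7.23 in control and 8.70, 8.62 and 8.30 at 6 h (1.03 ± 0.15, limma adjusted p = 0.0953), and 0.45 ± 0.16 in its dimmer probe set. Neither gene had overlapping groups. Tfpi2, a Kunitz-type inhibitor of serine proteases, read 4.98, 5.12 and 5.02 in control and 6.06, 6.10 and 5.91 at 6 h (0.99 ± 0.15, limma adjusted p = 0.115). Its control level lay under 5.21, and the change was 1.49 with a pseudocount of 1 and 0.48 with 64. Ppp1r15a, which directs a phosphatase to the stress-phosphorylated translation initiation factor, read 7.29, 7.30 and 6.98 in control and 8.22, 8.34 and 7.85 at 6 h (0.95 ± 0.15, limma adjusted p = 0.141). Lrrc14 had 0.64 ± 0.11. Brcc3-ps7, listed as a pseudogene whose signal may come from other copies, had 1.10 ± 0.16.

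Over the 31 extracellular proteases and inhibitors listed, 18 were tested and the median was 0.02, with 11 positive and 7 negative, and -0.0069 without control array 2. Beside Adamts1, the tissue plasminogen activator Plat read 8.34, 8.07 and 8.22 in control and 8.72, 8.73 and 8.71 at 6 h, above every control (0.51 ± 0.11, limma adjusted p = 0.429). Timp3, a metalloprotease inhibitor bound to the matrix, had -0.31 ± 0.11, and its 3 other probe sets had -0.30, -0.30 and -0.21. The heat shock and integrated stress list had 23 of 28 tested members positive, beside 61.3% of all genes, and 19 to 21 with 1 array left out. That list had a median of 0.08 (0.06 to 0.11 with 1 array left out). In it Atf4, the translation-controlled activator of the stress response, read 10.59, 10.53 and 10.35 in control and 10.74, 10.91 and 10.83 at 6 h (0.34 ± 0.08), while Ddit4, a repressor of mTOR signalling, read 9.17, 8.97 and 8.51 in control and 8.25, 8.27 and 8.41 at 6 h (-0.57 ± 0.16). Both had separate groups in opposite directions, and neither passed. Metallothionein and NRF2 antioxidant genes had a median of 0.11, with 12 of 17 positive, and of 0.05 to 0.14 with 1 array left out. The superoxide dismutase Sod1 had 0.19 ± 0.08 and the glutathione reductase Gsr -0.34 ± 0.15.

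**Figure D4:**
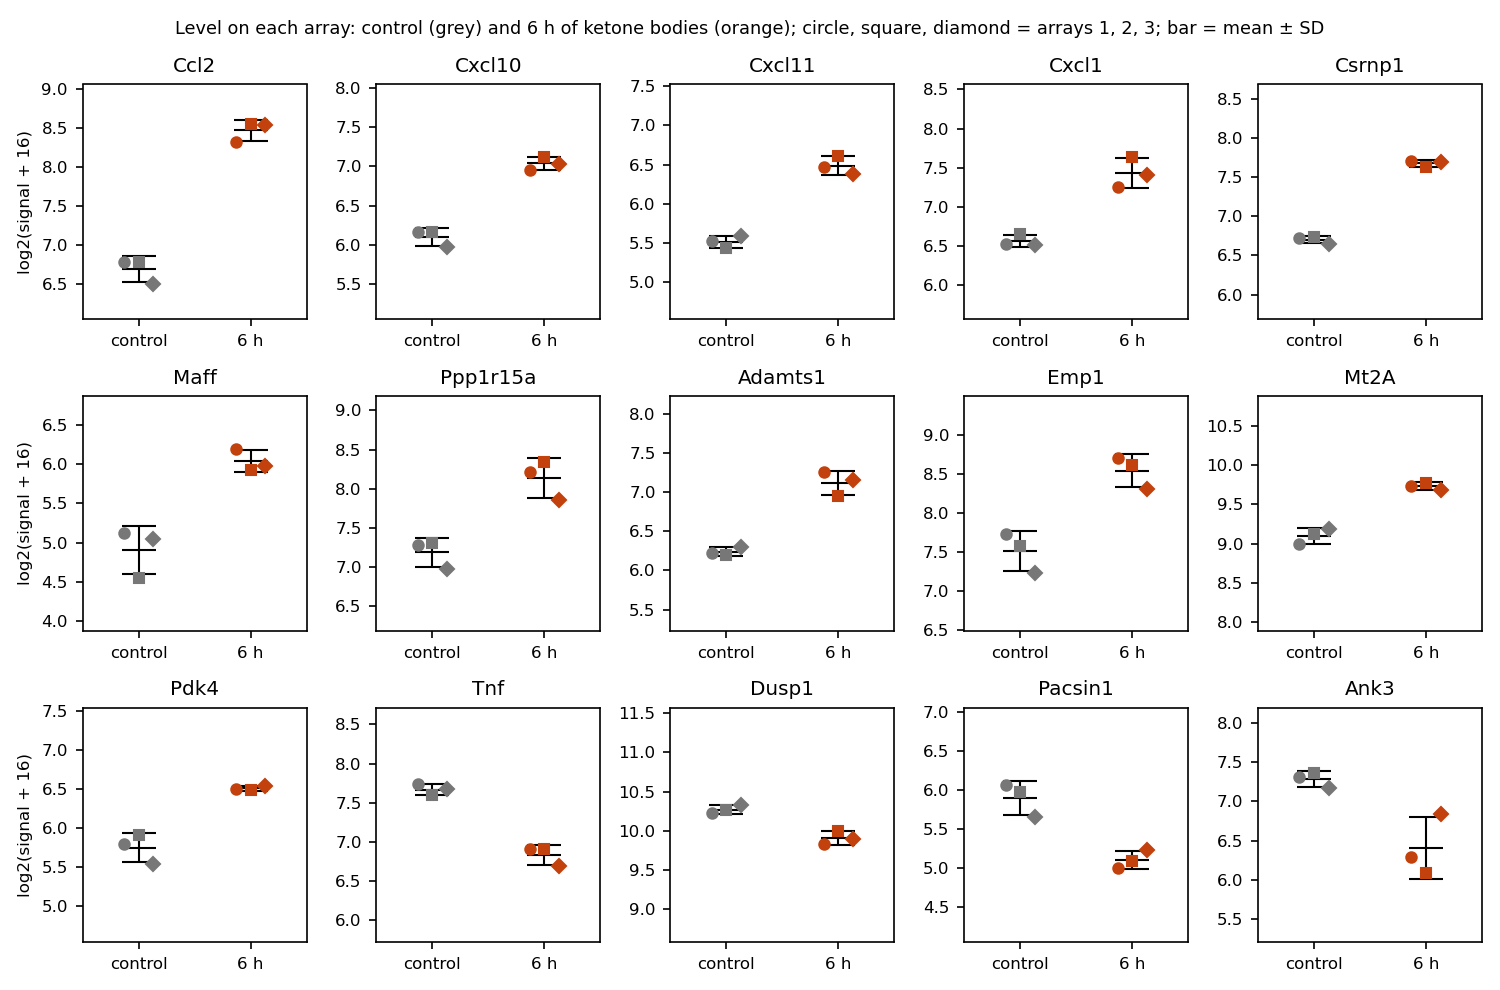
Each panel is 1 gene, with its level in log2(signal + 16) on the y axis for the 3 control arrays (grey) and the 3 arrays at 6 h (orange). A gene with several tested probe sets is drawn in the one with the smallest p. Markers give array 1 (circle), 2 (square) and 3 (diamond), and bars the mean ± SD, and every y axis spans 3 log2 units, so that Ccl2 at 6.50 to 6.79 against 8.31 to 8.55 stands out from changes near 1.

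The genes that carry and burn ketone bodies themselves had small changes in both directions. Of 15 listed 10 were tested, 5 with a positive and 5 with a negative change, the median was 0.01 (-0.014 without control array 3 to 0.08 without control array 2), and 0 reached an unadjusted p under 0.05 in either direction. Oxct1, which commits ketone bodies to oxidation by transferring coenzyme A, read 10.63, 10.61 and 10.71 in control and 10.54, 10.66 and 10.68 at 6 h (-0.02 ± 0.08). Bdh1, which converts beta-hydroxybutyrate to acetoacetate, read 7.85, 8.05 and 7.85 in control and 7.52, 7.76 and 8.06 at 6 h (-0.14 ± 0.16), and 0.04 ± 0.17 in its other probe set. Acat1, the thiolase that releases acetyl-CoA, had 0.11 ± 0.09 in the brighter and 0.21 ± 0.12 in the dimmer probe set. Of the monocarboxylate transporters, Slc16a1 of endothelium and astrocytes had 0.14 ± 0.10. The neuronal Slc16a7 read 7.41, 7.83 and 7.79 in control and 6.83, 7.42 and 7.84 at 6 h (-0.32 ± 0.28), and without 6 h array 1 its change was -0.05. With 3 arrays per group, changes of the size of these standard errors were not detectable.

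Among fuel-sensing genes Pdk4 had the smallest p. Pdk4, a kinase that shuts pyruvate dehydrogenase when fatty acids or ketone bodies are burnt and that PPAR alpha and glucocorticoids induce, read 5.80, 5.92 and 5.54 in control and 6.50, 6.49 and 6.54 at 6 h. The groups did not overlap and the change was 0.76 ± 0.14, a fold of 1.69 (limma adjusted p = 0.236), 0.97 with a pseudocount of 1 and 0.45 with 64. The other Pdk4 probe set lay under the filter and was not tested. It read 5.05, 4.56 and 5.03 in control and 4.87, 5.44 and 5.54 at 6 h, with overlap. Angptl4, a lipoprotein lipase inhibitor under PPAR control, read 6.47, 6.25 and 6.29 in control and 6.85, 6.85 and 6.79 at 6 h (0.49 ± 0.12, limma adjusted p = 0.601). The nuclear receptor Ppard had 0.55 ± 0.18 and the lipid droplet protein Plin4 0.37 ± 0.15. The control mean of Plin4, 5.12, lay under the filter level of 5.21. Of 36 fatty acid oxidation and PPAR alpha targets 23 were tested, 20 of them positive, beside 61.3% of all genes, with a median of 0.10 (0.09 to 0.14 with 1 array left out). At unadjusted p under 0.05 there were 4 higher and 0 lower, beside 3.28% and 0.85% of all genes, and 0 passed. Glycolysis, pyruvate dehydrogenase and citric acid cycle genes had 26 of 44 positive (median 0.02, 0.0016 without 6 h array 1 and -0.0075 without control array 3). In that list Suclg2, a subunit of succinyl-CoA ligase, read 8.67, 8.63 and 8.64 in control and 8.83, 9.23 and 8.97 at 6 h (0.36 ± 0.12).

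Large sets of mitochondrial, ribosomal and proteasome genes had small positive medians, beside 61.3% positive over all genes. Subunits of oxidative phosphorylation were positive in 66 of 75 (median 0.08), cytosolic ribosomal proteins 40 of 44 (median 0.09) and mitochondrial ribosomal proteins 65 of 73 (median 0.11). Proteasome subunits had 26 of 35 positive (median 0.05). Without 6 h array 1 these medians were 0.09, 0.10, 0.14 and 0.09, and without 6 h array 2, 0.04, 0.07, 0.07 and 0.011. In these 4 lists 0 members passed. Mrpl48, a protein of the large mitochondrial ribosomal subunit, read 9.04, 8.997 and 8.97 in control and 9.44, 9.61 and 9.27 at 6 h (0.44 ± 0.11, limma adjusted p = 0.64). The acidic ribosomal protein Rplp0 read 11.10, 11.01 and 11.08 in control and 11.24, 11.29 and 11.33 at 6 h (0.22 ± 0.07), and the complex I subunit Ndufa2 had 0.27 ± 0.09. The 6 h arrays differed in this: the median of the mitochondrial ribosomal list was 0.08, 0.22 and 0.06 above the control means on arrays 1, 2 and 3. With each array centred on its median in place of quantile normalization, the median over all genes itself was 0.10, and those of the 4 lists lay between 0.15 and 0.24.

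Genes of the clock and of glucocorticoid signalling went both ways (13 of 21 positive, median 0.10, but 0.002 without 6 h array 1). Nr1d1, the clock repressor Rev-erb alpha, read 7.50, 7.56 and 7.57 in control and 8.26, 8.28 and 7.84 at 6 h (0.58 ± 0.13, limma adjusted p = 0.429). Per2, a period gene that Nr1d1's clock partners drive, had -0.25 ± 0.11, and Bhlhe40, a clock and activity-dependent repressor, 0.41 ± 0.17. Klf15, a factor that glucocorticoids induce, had -0.68 ± 0.18 and -0.31 ± 0.12 in its probe sets. Cholesterol synthesis genes had 12 of 19 positive (median 0.02), and neurotrophins and their receptors 3 of 9 (median -0.03). The sign of the first turned without control array 1 (-0.0073) or 6 h array 3 (-0.0062), and that of the second without control array 3 (0.0026).

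Among single-gene probe sets with a negative change 0 passed, and for several of the 15 with the smallest p another probe set of the gene gave a smaller change. Ank3, the scaffold of the axon initial segment, read 7.32, 7.37 and 7.17 in control and 6.29, 6.08 and 6.84 at 6 h (-0.88 ± 0.19, limma adjusted p = 0.402), and -0.56 ± 0.30 in its other probe set. Pacsin1, which bends membranes in synaptic endocytosis, read 6.07, 5.97 and 5.65 in control and 4.999, 5.09 and 5.23 at 6 h (-0.79 ± 0.17, limma adjusted p = 0.397). Its values on 6 h arrays 1 and 2 lay under the filter level of 5.21. In its brighter probe set 6 h array 1 read 6.82 while 6 h arrays 2 and 3 read 8.75 and 8.85, within the control range of 8.14 to 8.87. The sorting receptor Sort1 had -0.65 ± 0.17 in one probe set and -0.10 ± 0.11 in the brighter, and the calmodulin-dependent phosphodiesterase Pde1b -0.72 ± 0.19 and -0.09 ± 0.16. For Synj2bp, Srgap2, Dnajb5 and Cnot6 too, the other probe sets had changes between -0.41 and 0.12, so the probe sets of these genes disagreed. Vwa3a (-0.95 ± 0.16), Tbl2 (-1.01 ± 0.20), Fam171a2 (-0.78 ± 0.18) and Ap5z1 (-0.54 ± 0.12) had 6 h means under the filter level of 5.21, and with a pseudocount of 64 the changes were -0.45, -0.43, -0.32 and -0.26. The brighter probe set of Tbl2 had 0.08 ± 0.16.

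The sodium and calcium channel list had a negative median in each run with 1 array left out. Of 22 sodium and calcium channel subunits tested 18 were negative (median -0.13, -0.15 without 6 h array 1 and -0.06 without 6 h array 2), with 0 that passed. Of 44 potassium channel subunits 31 were negative (median -0.05), with 0 that passed, but this median depended on the arrays: it was -0.13 without 6 h array 1, 0.014 without 6 h array 2, with 19 of 44 negative, and without control array 1 the genes split into 22 positive and 22 negative. Synaptic vesicle genes had 21 of 27 negative (median -0.06), postsynaptic scaffold genes 21 of 32 (median -0.02) and GABA genes 9 of 16 (median -0.06), while glutamate receptors and transporters were split with 13 of 28 negative (median 0.01). Without 6 h array 1 these 4 medians were -0.05, -0.06, -0.04 and -0.0085, with 17 of 27 vesicle and 19 of 32 postsynaptic genes negative. The postsynaptic median was 0.0060 without 6 h array 2, the glutamate median -0.05 without control array 3, and the vesicle and GABA medians stayed below 0 with any 1 array left out. Centring on array medians turned the median to 0.04, 0.02 and 0.02 for the vesicle, postsynaptic and GABA lists and left -0.06 for sodium and calcium and -0.02 for potassium channels. With that centring the median over all genes was itself 0.10, above each of these. Kcna2, an axonal delayed rectifier, read 10.23, 9.90 and 9.89 in control and 9.23, 9.42 and 9.70 at 6 h, below every control (-0.56 ± 0.17, limma adjusted p = 0.98). Kcnd2, the dendritic A-type channel, read 9.36, 9.35 and 9.66 in control and 8.63, 9.07 and 9.19 at 6 h (-0.49 ± 0.17), but in its dimmer probe set 6 h array 1 read 5.998 against 8.005 and 8.54 on the others. The sodium channel Scn3a had -0.62 ± 0.21 and the active zone protein Rims1 -0.59 ± 0.18. In Kcna2, Kcnd2, Scn3a and Rims1 alike 6 h array 1 was the lowest of the 6 arrays and 6 h array 3 the highest of its group, the reverse order of their beta-actin 3'/5' ratios. The part of RNA quality in these changes was not tested beyond the fit with that ratio as a covariate, chosen after seeing the data, in which the 4 changes were -0.44, -0.36, -0.51 and -0.43.

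Markers of excitatory neurons had negative changes in 12 of 14 tested genes (median -0.12, -0.10 without 6 h array 1 and -0.08 without 6 h array 2), 0 of which passed. Their summed signal ran from 13932 to 14940 in control and from 12185 to 13230 at 6 h. Neurod6, a transcription factor of pyramidal neurons, read 10.25, 10.48 and 10.44 in control and 9.81, 10.11 and 10.23 at 6 h (-0.34 ± 0.11), and the brighter probe set of the vesicular glutamate transporter Slc17a7 had -0.30 ± 0.17. Interneuron markers leaned the other way, with 12 of 14 positive (median 0.10, 0.16 without 6 h array 1 and 0.04 without control array 3). Sst, the somatostatin gene, read 10.18, 10.15 and 10.28 in control and 10.46, 10.48 and 10.41 at 6 h, above every control (0.24 ± 0.07, limma adjusted p = 0.98). Pvalb had 0.25 ± 0.13 and Vip 0.20 ± 0.10. In bulk RNA fewer cells of a type and less RNA per cell cannot be told apart. The excitatory median was -0.16, -0.12 and -0.10 on 6 h arrays 1, 2 and 3, lowest where the beta-actin 3'/5' ratio was highest. With arrays centred on their medians it was -0.04, with 5 positive and 9 negative, beside 0.10 over all genes. The part of RNA quality in these marker changes was not tested.

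Markers of other cells are given beside the inflammatory genes. Microglia and macrophage markers had 10 of 14 positive, with a median of 0.06 (0.09 without 6 h array 1 and 0.0032 without 6 h array 2) and a summed signal of 4747 to 4824 in control and 4722 to 5308 at 6 h. Of these Aif1 read 7.30, 7.01 and 6.63 in control and 7.50, 7.45 and 7.20 at 6 h (0.40 ± 0.17), with overlap, and Csf1r had 0.01 ± 0.18. Cx3cr1, 1 of the 4 markers with a negative change, read 6.02, 6.75 and 6.31 in control. At 6 h Cx3cr1 read 5.77, 6.08 and 6.11 (-0.38 ± 0.21), with overlap. Endothelium and pericyte markers had 8 of 14 positive (median 0.08, and -0.01 without 6 h array 1), and their summed signal ran from 1337 to 1425 in control and from 1418 to 1555 at 6 h. Astrocyte markers had a median of 0.03, and of -0.03 without 6 h array 1 or -0.02 without control array 3. Oligodendrocyte markers had -0.02, -0.05 without 6 h array 1 and 0.03 without 6 h array 3. Of 14 blood and T cell markers 3 were tested, 2 with a positive and 1 with a negative change (median 0.25). In 1 of them all 6 h arrays lay above all controls and in 1 below, beside 7.17% and 2.44% of all genes. Hbb, the beta globin of red cells, read 11.71, 11.84 and 11.48 in control and 11.86, 12.14 and 11.98 at 6 h (0.32 ± 0.12, limma adjusted p = 0.987), with every 6 h array above every control. Its part in the inflammatory changes was not tested.

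**Figure D5:**
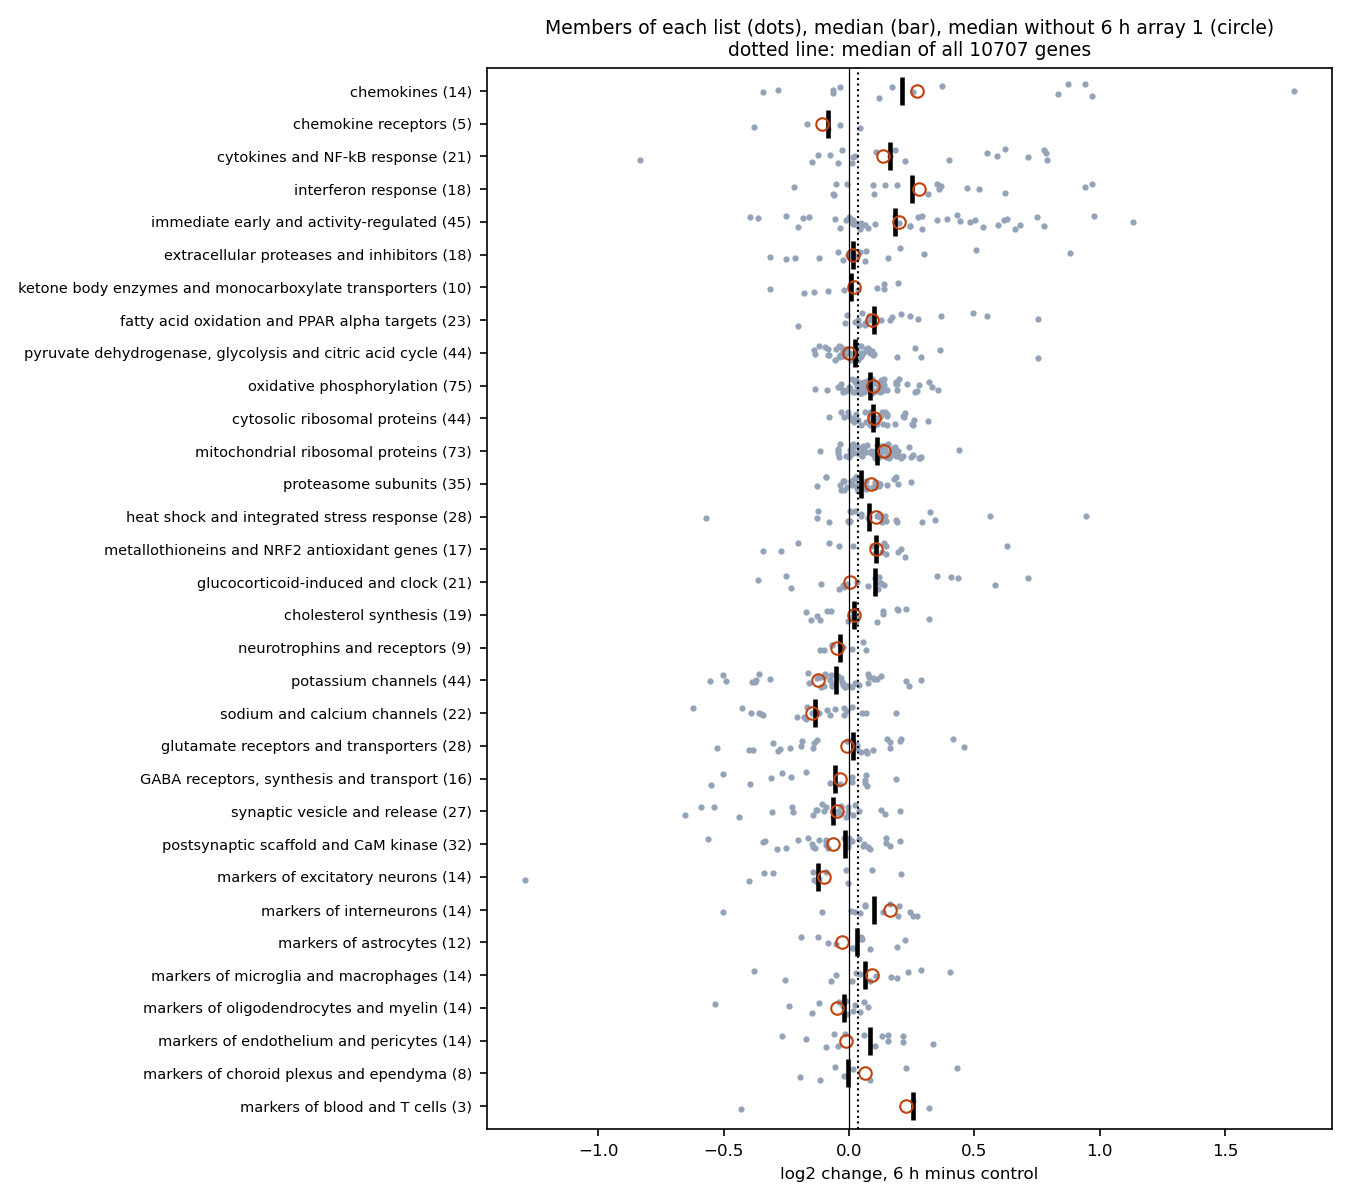
Each row is a gene list with the number of tested members in parentheses, and the x axis is the log2 change, 6 h minus control. Dots are genes, black bars list medians and circles the medians without 6 h array 1, and the dotted line is the median of all 10707 genes, 0.04, so that chemokine, interferon and immediate early medians lie to its right and those of channels and excitatory neurons to its left.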

How the data were processed

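Gene expression was measured on rat arrays of total RNA, of which the 3 arrays at 6 h of ketone bodies and the 3 control arrays are compared here and the 3 arrays at 1 h enter only the normalization, the filter and the estimate of the spread. The authors deposited linear signal intensities, 1 column per array, for 31099 probe sets. What summary method and software made them was not given in the sources used here. After trimming 2% of probe sets at each end, every array has a mean of 150.0, and array medians of log2(signal + 16) ran from 5.67 to 5.88. The number of arrays limits the precision.

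From these values log2(signal + 16) was taken and quantile-normalized without the 57 control probe sets, and probe sets whose mean lay below the 40th percentile (5.21 on the log2 scale, or 21.0 as a signal) were left out. A single fit with limma 3.58.1 in R 4.3.3 (1 coefficient per group, 6 residual degrees of freedom, an intensity trend, Benjamini-Hochberg adjustment over 18625 probe sets, threshold 0.05) gave each change, SE and p. The fit was also run on simulated data with independent noise in each probe set. Those data held no outlying array, so that run does not cover a case like 6 h array 1. Names came from the platform annotation, checked against a rat gene table: 20826 probe sets have 1 gene, 436 several and 9780 none, and 20758 of the first matched by Entrez number. Lists hold 1 probe set per gene, the one with the highest mean, and summed signals are over tested members.

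The genes named are those that pass, the 15 smallest p in each direction, up to 4 members per list, and fixed ketone, cytokine and cell type genes. Other list members (among them Ccl7, Ccl4, Cxcl16, Ccl3, Nfkbiz, Cebpb, Zc3h12a, Tnfaip3, Ptgs2, Irf7, Mx2, Rsad2, Gadd45b, Atf3, Klf4, Fosb, Nr4a1, Egr2, Per2 and Bhlhe40) were chosen after their values were seen. The members and lists were chosen with earlier results of these data known. Replicate numbers were checked for pairing: deviations of arrays with the same number correlated at 0.54, 0.03 and 0.26. Those of arrays with different numbers ran from -0.39 to 0.30. With 3 arrays per group this cannot decide whether the numbers pair the arrays, and the main fit treats them as unpaired. Alternatives tried were other scalings (as deposited, or centred on medians), pseudocounts of 1 and 64, a filter at the 60th percentile or none, array weights, a variance without trend, a replicate block, only the 6 arrays compared, 1 probe set per gene, leaving out each array and, added after seeing the data, the beta-actin 3'/5' ratio as a covariate. Promoter motifs were searched on both strands.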

Additional observations from a re-analysis of the deposited data

How the results depend on the processing

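The direction of Ccl2 and its call by limma held under every alternative run, with adjusted p between 0.00015 and 0.0209. The counts of probe sets that rose and fell were 4 and 1. They were 2 and 0 with the values as deposited and with no filter, and 1 and 0 with arrays centred on their medians, with only the 6 arrays compared and with the beta-actin 3'/5' ratio as a covariate (chosen after seeing the data). With 1 probe set per gene 10 rose, and with any 1 of the 6 arrays left out 1 rose and 0 fell. With the replicate block 1 rose and 0 fell, with 819 at unadjusted p under 0.05. Only Ccl2 passed with the block, at the same change of 1.77 as in the main fit, while Csrnp1 and Cxcl10 did not pass. Whether the labels' shared numbers pair the arrays is not settled. The unadjusted count of 792 was 1423 with no filter, 503 at the 60th percentile and 494 with 1 probe set per gene, where the number tested differs, and ran from 521 (without 6 h array 2) to 1605 (without 6 h array 3) with 1 array left out. The 3'/5' ratios kept their direction under both alternatives.

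Several changes turned sign, most of them small, but also -0.44 in the brighter probe set of Pacsin1 and -0.41 in a second one of Dnajb5. For Cnot6, Dnajb5, Pacsin1, Sort1, Srgap2, Synj2bp and Tbl2 the values here belong to other probe sets than those among the 15 smallest p, which kept their direction. With the values as deposited Oxct1 had 0.020, Synj2bp -0.048 in a second probe set and Ttr 0.036. With centring Oxct1 had 0.097, Sort1 0.014 in its brighter probe set and Ttr 0.11. With array weights Bdh1 had -0.072 in its dimmer probe set, Csf1r -0.16, Oxct1 0.016, Pacsin1 0.079 in its brighter probe set, Ptgs2 0.018 and Srgap2 -0.016. With the covariate Bdh1 had 0.029 in its brighter probe set, Csf1r -0.10, Dnajb5 0.046, Srgap2 -0.0098 and Synj2bp -0.012. With 1 array left out the changes ran from -0.082 to 0.13 for Bdh1 in its dimmer probe set, -0.093 to 0.34 for Cnot6, -0.20 to 0.13 for Csf1r, -0.16 to 0.031 for Dnajb5, -0.069 to 0.10 for Fos, -0.048 to 0.022 for Oxct1, -0.80 to 0.22 for Pacsin1, -0.24 to 0.034 for Ptgs2, -0.044 to 0.21 for Srgap2, -0.13 to 0.13 for Synj2bp, -0.051 to 0.15 for Tbl2 and -0.038 to 0.0086 for Ttr. The cause was not tested. Of the other gene changes under an alternative, 1883 kept direction and side of the threshold, 22 lost it and 11 gained it. All 22 losses were of Csrnp1 or Cxcl10, since Ccl2 always passed. Most of the 1883 were of genes that did not pass in the main fit, which had no call to lose. Of the list medians 325 moved by less than the spread between the 6 h arrays and 59 by more. Centring on array medians gave 21 of the 59, with only 11 lists unmoved by it, so the list medians depend on the normalization. Signals near the filter level limit what the dim genes show.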
